A study of Mus musculus with 8 samples.

Results

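Ubiquitin-specific proteases, or USPs, are the largest family of deubiquitinases, the enzymes that cut the small protein ubiquitin off other proteins. The members described here are the genes whose platform symbol is Usp followed by a digit, each represented by its brightest single-gene probe set. This rule found 51 genes among the 18193 genes tested, from 128 single-gene probe sets. A further 4 probe sets named with several genes were left out. The symbol took in a pair of genes that are not proteases, Usp6nl, which encodes a Rab GTPase-activating protein, and Usp46os2, an RNA from the strand opposite Usp46, so 49 members carry the name of a protease. Each value is a log2 RMA value, a background-corrected and normalised summary of the probes of a gene, and a step of 1 is a doubling of signal. Values of single mice are given below in the order mutant 141, 153, 154 and 191, then wild-type 161, 170, 180 and 200.

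Striatum, the part of the forebrain most affected in Huntington's disease, was taken from 4 CHL2 mutant mice and 4 wild-type mice, all aged 22 months and of the strain C57BL/6 X CBA F1 hybrid. CHL2 mutants carry a human exon 1 stretch of 150 CAG repeats inside the mouse's own Huntington's disease gene, here on both copies (Q150/Q150), and the wild-type mice carry none of this insert. Mutants 141, 153 and 154 and wild-type mouse 161 were female, and mutant 191 and wild-type mice 170, 180 and 200 were male. Each mouse gave 1 array of whole striatal RNA, with no sorting of cells. The labels do not say whether any mice were littermates.

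A protein that carries a chain of ubiquitin is delivered to the proteasome, sent to the lysosome, or moved to another place or partner, and a deubiquitinase can reverse that mark. USPs share a catalytic core with a cysteine at its centre and differ in the domains around it, which place each enzyme at the proteasome, on endosomes, mitochondria, chromatin or other sites. In neurons they act on receptor sorting, on synaptic proteins and on the clearing of misfolded proteins, and mutant huntingtin is itself ubiquitinated and found in ubiquitin-positive inclusions.

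The 8 arrays had medians between 4.95 and 4.98 on the log2 scale and correlated at r = 0.983 to 0.996 with each other. Wild-type mouse 170 stood apart in the difference between 3' and 5' control probe sets, a sign of RNA quality, at 1.37 for Gapdh and 2.65 for beta-actin, against 0.32 to 0.43 and 1.23 to 1.51 in the other mice. The tissue label was checked against 11 markers of medium spiny neurons, the main neurons of striatum, whose mean log2 level lay between 11.28 and 11.42 in wild-type and between 9.75 and 10.00 in mutant mice, with 11 of 11 lower in mutants. In whole tissue, fewer cells of a type and less RNA per cell cannot be told apart. Of 8 astrocyte markers 2 were higher in mutants (S100b and Gfap), of 7 oligodendrocyte markers 1 was higher (Olig1) and 1 lower (Mobp), of 7 endothelial and mural markers 1 was lower (Cdh5, under 5 in all mice), and of 9 microglial markers 0 passed, with 1 at an unadjusted p under 0.05. At an unadjusted p under 0.05 stood 5 astrocyte, 5 oligodendrocyte and 3 endothelial and mural markers. Below 0 lay 5 of the 8 astrocyte markers, among them Sox9 (-0.31, adjusted p = 0.0574) and Slc1a2 (-0.22, adjusted p = 0.130). Groups did not overlap for 3 astrocyte markers (Sox9, Slc1a2 and S100b, which was higher), 4 oligodendrocyte, 2 endothelial and mural and 0 microglial markers. Over all genes, 12.4% were called at an adjusted p under 0.05 and 20.7% had groups without overlap. Among genes with all 8 values at or over 5, these shares were 18.4% and 30.3%. Mean log2 levels of these lists ran, in wild-type and in mutant mice, from 9.50 to 9.65 and from 9.55 to 9.68 for astrocytes, from 10.87 to 11.12 and from 10.94 to 11.03 for oligodendrocytes, from 6.43 to 6.64 and from 6.27 to 6.37 for endothelial and mural cells, and from 7.40 to 7.68 and from 7.52 to 7.68 for microglia. Of 7 markers of cortical and other non-striatal neurons and 5 of choroid plexus and ependyma 0 passed, with 2 and 0 at an unadjusted p under 0.05, and their mean log2 levels overlapped between the groups, from 3.98 to 5.23 and from 6.25 to 8.15 over all mice. The part of these cell types in the USP results was not tested.

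In mutant striatum 9 Usp genes were higher and 2 were lower. The rises were in Usp29, Usp47, Usp25, Usp13, Usp6nl, Usp34, Usp20, Usp46 and Usp14, by 1.23-fold to 1.54-fold, and the falls were in Usp2, by 1.58-fold, and Usp28, by 1.46-fold. A gene was said to rise or fall at an adjusted p under 0.05 in limma's moderated test of genotype with sex as a term, adjusted over all genes. These 11 genes are 21.6% of the 51 members, where 12.4% of all genes tested were called. In one direction, 17.6% of members were called higher against 6.4% of all genes, and 3.92% were called lower against 6.01%. Among the genes with all 8 values at or over 5, those with clear signal, the called shares were 25.6% of 43 members and 18.4% of 10678 genes.

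The median log2 change of the members was 0.08, beside 0.01 over all genes, and 60.8% of members lay above 0 against 51.2% of all genes. The median size of the change regardless of direction was 0.14 for members and 0.13 for all genes. Mutant and wild-type values were fully apart for 16 members (31.4%), where this held for 20.7% of all genes, and 9 of these 16 were among the called genes. The mean deviation of all members from their own means lay between -0.02 and 0.09 in mutants and between -0.05 and 0.03 in wild-type mice, so the groups overlapped on the mean of the family. This mean carries no term for sex. Among the genes with all 8 values at or over 5, the share fully apart was 32.6% of members against 30.3% of all such genes, and the share above 0 was 62.8% against 57.2%.

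**Figure D1:**
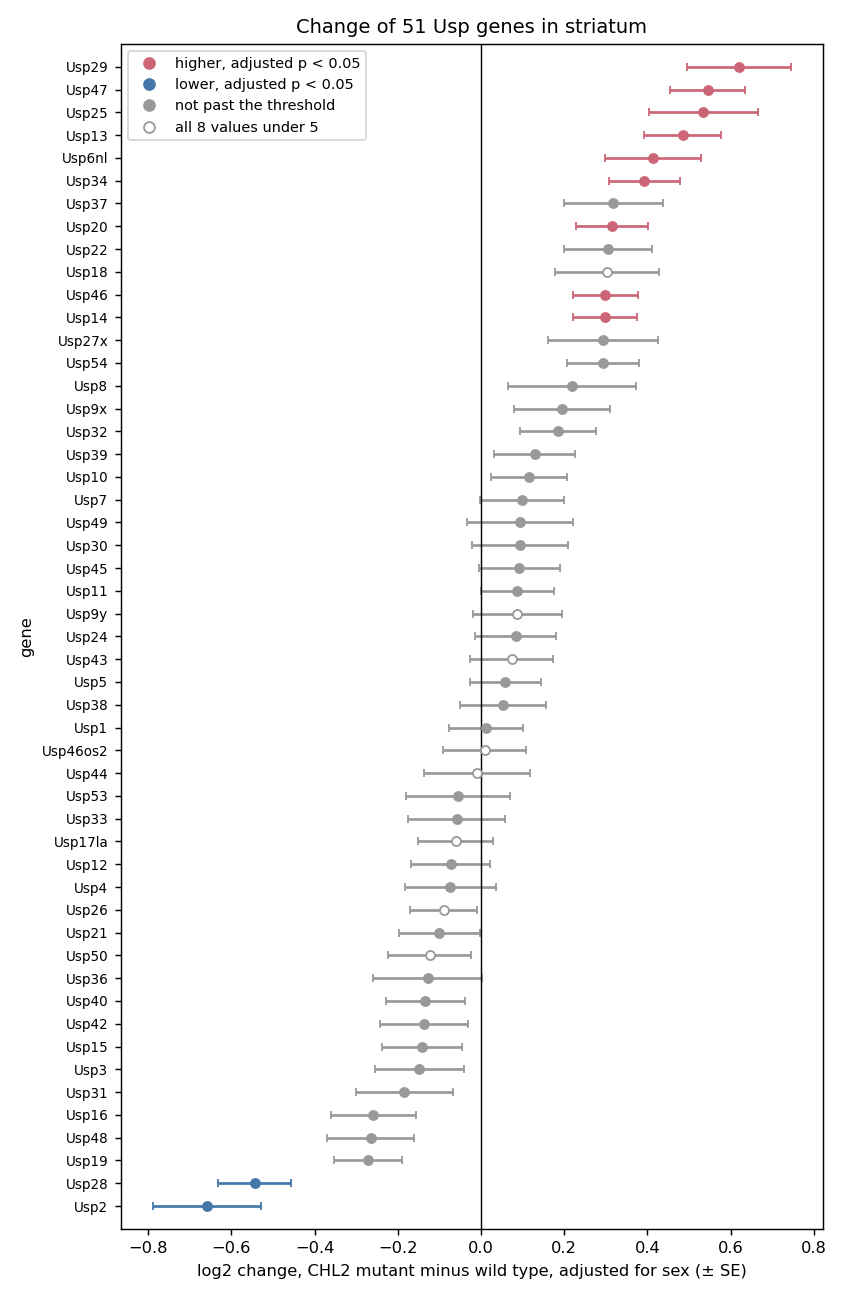
Log2 change of each of the 51 Usp genes (vertical axis) between CHL2 mutant and wild-type striatum (horizontal axis, sex-adjusted, bars are the SE of the fit). The 9 called rises reach from 0.30 for Usp14 to 0.62 for Usp29 and the 2 falls lie at -0.54 and -0.66, while the 8 open points are genes whose values all lay under 5.

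The count of calls moved with the mice that are alone in their sex within a group. Without mutant 191, the fit with sex compares genotypes among females only, where wild-type 161 is the one wild-type mouse. Without wild-type 161, that fit compares them among males only, where mutant 191 is the one mutant. The share of all genes called was not determined for fits on fewer mice. Other lists of the ubiquitin system also lost calls in these fits, as given below. With sex in the fit, 1 member passed without mutant 191 (Usp28) and 3 passed without wild-type 161 (Usp47, Usp2 and Usp29). When those fits held no term for sex, 13 and 12 members passed, and 8 of the original 11 were among them in both cases, namely Usp28, Usp47, Usp13, Usp2, Usp29, Usp14, Usp46 and Usp20. Without wild-type 200 the count was 7 (Usp14, Usp20, Usp46 and Usp6nl were lost), without mutant 141 it was 8 (Usp20, Usp46 and Usp6nl lost), without mutant 154 it was 8 (Usp14, Usp20 and Usp46 lost), and without wild-type 170, the mouse with the larger 3' to 5' difference, it was 10, with Usp20 and Usp6nl no longer called and Usp37 newly called.

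Promoter windows of 4 members are shown first, so that their composition can be read beside the values. Windows of 39 of the 51 members were found by symbol in the RefSeq table (build GRCm38.p6), and the 250 bases before the annotated start are printed for both genes that fell, Usp2 at chr9:44084670-44084919 (+ strand) and Usp28 at chr9:48985135-48985384 (+ strand), for Usp25, the close relative of Usp28 that rose, at chr16:77013819-77014068 (+ strand), and for Usp47, the rise with the lowest adjusted p, at chr7:112023256-112023505 (+ strand). Capitals mark matches on either strand to the GC box GGGCGG, the CCAAT box CCAAT, the E-box CACGTG through which clock factors bind, or the cAMP response element TGACGTCA.
Usp2: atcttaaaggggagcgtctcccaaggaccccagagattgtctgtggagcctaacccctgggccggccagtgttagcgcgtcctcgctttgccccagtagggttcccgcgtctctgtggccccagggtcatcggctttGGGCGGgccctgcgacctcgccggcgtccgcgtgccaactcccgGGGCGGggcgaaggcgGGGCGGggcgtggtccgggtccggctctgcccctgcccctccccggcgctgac
Usp28: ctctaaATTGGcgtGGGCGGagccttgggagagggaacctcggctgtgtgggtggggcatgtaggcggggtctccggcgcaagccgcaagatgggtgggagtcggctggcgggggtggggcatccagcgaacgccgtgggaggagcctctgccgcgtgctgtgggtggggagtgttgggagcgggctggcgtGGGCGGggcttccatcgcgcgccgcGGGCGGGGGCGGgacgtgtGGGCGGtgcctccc
Usp25: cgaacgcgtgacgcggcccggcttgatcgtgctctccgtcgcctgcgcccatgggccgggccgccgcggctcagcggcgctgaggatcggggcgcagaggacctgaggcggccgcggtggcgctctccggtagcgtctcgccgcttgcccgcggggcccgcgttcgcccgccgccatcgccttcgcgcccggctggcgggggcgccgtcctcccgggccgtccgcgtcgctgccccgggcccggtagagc
Usp47: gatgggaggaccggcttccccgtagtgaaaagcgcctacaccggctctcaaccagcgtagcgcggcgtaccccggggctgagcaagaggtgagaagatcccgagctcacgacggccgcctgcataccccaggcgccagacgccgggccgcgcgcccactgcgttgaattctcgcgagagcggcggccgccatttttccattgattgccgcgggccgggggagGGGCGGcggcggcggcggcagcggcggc
The window of Usp2 held 3 GC boxes, that of Usp28 held 5 GC boxes and 1 CCAAT box, that of Usp47 held 1 GC box and that of Usp25 held 0 of the 4 motifs. Of Usp2, Usp28, Usp25 and Usp47, 0 held an E-box or a cAMP response element in this window. Over the 39 members with a window, a GC box was present in 24 genes, a CCAAT box in 11, an E-box in 4 (Usp4, Usp6nl, Usp16 and Usp31) and a cAMP response element in 0. A match is a description of the letters and not a binding site. Among all 32851 windows of this length the shares were 32.74%, 33.85%, 6.02% and 1.55% in the same order. The GC content was 80.0% for Usp25 and between 71.2% and 73.2% for the other three.

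Members are taken by role from here on, in groups of at most 9 genes. Their counts of calls stand beside 12.4% of all genes called, or 18.4% of those with clear signal. The counts were not tested as results about a role. Genes of free ubiquitin chains and the proteasome included a pair of rises among 3. Usp14, which sits on the regulatory particle of the proteasome and trims ubiquitin from arriving proteins, had log2 values of 9.33, 9.36, 9.36 and 9.35 in mutants, against 9.04, 9.06, 9.12 and 8.98 in wild-type mice. All mutants lay within 0.03 of each other and above every wild-type mouse. It rose 1.23-fold, with a log2 change of 0.30 (SE 0.08) and an adjusted p = 0.0304. A second of its 4 probe sets gave the same log2 change of 0.30, but the other 2 lay at 0.05 and -0.0046, and averaging the 4 probe sets lost the call (log2 change 0.16, adjusted p = 0.235). The brightest probe set also missed the threshold when adjusted over all probe sets (adjusted p = 0.0590).

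Usp13, a relative of the chain-recycling enzyme Usp5 that also acts on regulators of autophagy, had log2 values of 6.86, 6.79, 6.78 and 6.80 in mutants and of 6.29, 6.52, 6.29 and 6.24 in wild-type mice. Every mutant was above the highest wild-type mouse, which was 170. The gene rose 1.40-fold (log2 change 0.49, SE 0.09, adjusted p = 0.00738). Its other probe set lay near background, at a mean of 4.01, with a log2 change of -0.10, and averaging both lost the call (adjusted p = 0.174). Usp5 itself, isopeptidase T, which takes apart unanchored chains, stood at 8.87 ± 0.09 (SD, n = 4) in wild-type and 8.93 ± 0.05 in mutant mice, a log2 change of 0.06 (SE 0.09, adjusted p = 0.743).

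Among the partners of WDR48, a protein that switches these enzymes on, 1 of 3 rose. Usp46, an enzyme known for acting on glutamate receptors and for effects on mouse behaviour, had log2 values of 9.79, 9.81, 9.84 and 9.69 in mutants, and 9.46, 9.46, 9.50 and 9.37 in wild-type mice. The lowest mutant was the male 191, and it still lay above all wild-type values. The rise was 1.23-fold (log2 change 0.30, SE 0.08, adjusted p = 0.0330), but among all probe sets it missed the threshold (adjusted p = 0.0631), as did its second probe set at 0.26 (adjusted p = 0.175). Usp12, its near twin in sequence, had 8.08 ± 0.13 (SD, n = 4) in wild-type and 7.98 ± 0.05 in mutant mice, a log2 change of -0.07 (SE 0.09, adjusted p = 0.707). Usp1, which acts in DNA crosslink repair, had a log2 change of 0.01 (SE 0.09), and the shared activator Wdr48 one of -0.02 (SE 0.10, adjusted p = 0.944).

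Of 3 members tied to p53 and its ligase MDM2, 1 fell. Usp2, which removes ubiquitin from MDM2 and from the clock protein PER1 and whose own transcript cycles with the circadian clock, had log2 values of 9.06, 9.20, 8.99 and 8.74 in mutants and of 9.43, 9.70, 9.69 and 9.77 in wild-type mice. Both animals nearest to the other group were female, mutant 153 and wild-type 161, and the groups did not overlap. With all mice in the fit, the fall was the largest in the family at 1.58-fold (log2 change -0.66, SE 0.13, adjusted p = 0.00829). A second probe set of Usp2 had a log2 change of -0.68 (adjusted p = 0.0312 among all probe sets). Without mutant 191 and with sex in the fit, wild-type 161 alone stood for the wild-type mice. The log2 change of Usp2 was then -0.34 and not called, and Usp28 fell further, at -0.64. With sex left out and without mutant 191, the log2 change of Usp2 was -0.56 (adjusted p = 0.00455). Without wild-type 161 and with sex in the fit, where mutant 191 alone stood for the mutants, it was -0.97. With values of all genes floored at 5 the call was lost (adjusted p = 0.0587), although no Usp2 value lay under 5. The labels do not state at what hour mice were killed.

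Usp7, also called HAUSP, which stabilises both MDM2 and p53, had 9.89 ± 0.11 (SD, n = 4) in wild-type and 10.00 ± 0.12 in mutant mice, with a log2 change of 0.10 (SE 0.10, adjusted p = 0.618). Its 7 probe sets ran from -0.33 to 0.20 on the scale of log2 change, and 0 of them passed among all probe sets. Usp10, which acts on p53 and binds the stress granule protein G3BP1, had a log2 change of 0.12 (SE 0.09, adjusted p = 0.491). Mdm2 itself lay at 0.20 (SE 0.08, adjusted p = 0.117).

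Members linked to DNA damage and the cell cycle moved in both directions, with 2 rises and 1 fall among 8. Usp28, a nuclear enzyme of the DNA damage response that protects MYC from degradation, had log2 values of 6.79, 6.87, 6.90 and 6.95 in mutants, against 7.49, 7.45, 7.30 and 7.46 in wild-type mice. The gap between the groups was larger than the range inside either. The log2 change was -0.54 (SE 0.09, adjusted p = 0.00285), with the lowest adjusted p of the family, and Usp28 was the one member still called without mutant 191. Without wild-type 161 its log2 change was -0.45 with sex in the fit, where mutant 191 alone stood for the mutants, and the call was lost. With sex left out the log2 change was -0.53 (adjusted p = 0.00189). Usp28 has 1 probe set.

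Usp47, which acts on DNA polymerase beta in base excision repair, had log2 values of 9.27, 9.53, 9.34 and 9.49 in mutants and of 8.88, 8.93, 8.87 and 8.90 in wild-type mice. The wild-type mice lay close together, and each mutant was well above them. The rise was 1.46-fold (log2 change 0.54, SE 0.09, adjusted p = 0.00333). Its other probe sets lay at 0.13 (adjusted p = 0.539) and 0.42 (adjusted p = 0.0648).

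Usp25, the closest relative of Usp28, had log2 values of 6.20, 5.90, 6.47 and 6.68 in mutants and of 5.65, 6.10, 6.28 and 6.08 in wild-type mice. The groups overlapped, since female mutant 153 lay under all male wild-type mice, while within each sex every mutant was above every wild-type mouse. With sex in the fit Usp25 rose 1.45-fold (log2 change 0.53, SE 0.13, adjusted p = 0.0231), and without that term the log2 change was 0.29 (adjusted p = 0.314). Its call was also lost with values of all genes floored at 5 (adjusted p = 0.105), although no Usp25 value lay under 5. Usp24, Usp37, Usp45 and Usp48 did not pass, with log2 changes from -0.27 to 0.32. Usp43 had all 8 values under 5, the log2 of 32 used here as a mark of signal near background.

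Of 7 members of endosomes, receptors and trafficking, 2 rose and 0 fell. Usp20, which acts on the recycling of beta-adrenergic receptors, had log2 values of 8.41, 8.49, 8.41 and 8.21 in mutants against 8.02, 7.92, 8.08 and 7.98 in wild-type mice. All mutants were above all wild-type mice, with the male mutant nearest to them. It rose 1.24-fold (log2 change 0.32, SE 0.09, adjusted p = 0.0386), and its other 3 probe sets, with means under 5, lay at 0.53, 0.29 and 0.12. Among all probe sets the brightest missed the threshold (adjusted p = 0.0719). With sex in the fit the call was lost on leaving out any mouse other than wild-type 180 (adjusted p between 0.0539 and 0.394), while the log2 change lay between 0.21, without wild-type 161, and 0.42, without mutant 191. With sex left out it passed without 161 (adjusted p = 0.0181) and without 191 (adjusted p = 0.00414).

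Usp6nl, the Rab GTPase-activating protein gene, had log2 values of 6.17, 5.88, 5.94 and 6.33 in mutants, and of 5.77, 5.74, 5.83 and 5.61 in wild-type mice. Mutant 153 exceeded the highest wild-type mouse by little. The rise was 1.33-fold (log2 change 0.41, SE 0.12, adjusted p = 0.0418), the highest adjusted p among the calls. Among all probe sets the brightest missed the threshold (adjusted p = 0.0755), and the other 2 lay at 0.39 (adjusted p = 0.0872) and 0.36 (adjusted p = 0.0369). The call was also lost with values floored at 5 (adjusted p = 0.120), and without mutant 191 the log2 change was 0.23 (adjusted p = 0.475).

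Usp9x, an X-linked enzyme of neuronal migration and growth, had log2 values of 8.21, 8.11, 8.42 and 8.80 in mutants and of 8.25, 8.44, 8.31 and 8.48 in wild-type mice. Mutant 191 was the highest of all mice and mutant 153 the lowest. The log2 change was 0.19 (SE 0.11, adjusted p = 0.333) and did not pass. Of 7 probe sets 1, of mean 7.71, was higher (log2 change 0.49, adjusted p = 0.0150 among all probe sets), and the other 6 lay between 0.05 and 0.29. Usp8, which works on sorting endosomes, Usp32 and Usp33 had log2 changes of 0.22, 0.19 and -0.06 and did not pass, and Usp9y lay under 5 in all mice.

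Usp34, a very large enzyme that acts on axin in Wnt signalling, had log2 values of 9.58, 9.45, 9.60 and 9.89 in mutants and of 9.21, 9.52, 9.41 and 9.39 in wild-type mice. Wild-type 170 lay above mutant 153, so the groups overlapped. The rise was 1.31-fold (log2 change 0.39, SE 0.09, adjusted p = 0.0133), and its other probe sets lay at 0.39 (adjusted p = 0.134) and 0.55 (adjusted p = 0.0268). Like Usp25, it lost its call without the term for sex (log2 change 0.25, adjusted p = 0.143).

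Usp54, a relative of the junction protein gene Usp53, had log2 values between 8.89 and 9.13 in mutants and between 8.61 and 8.77 in wild-type mice. The groups did not overlap, but the gene just missed the threshold (log2 change 0.29, SE 0.09, adjusted p = 0.0509). It passed in the fit without sex, with a trended and robust prior, with median centring, without dimmer genes and with the probe sets of every gene averaged. Usp31, Usp38, Usp40 and Usp53 had log2 changes from -0.18 to 0.05.

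Usp29, a gene of the imprinted Peg3 region that is expressed from the paternal copy in brain, had the largest rise of the family with all mice in the fit. Its log2 values were 7.80, 8.06, 7.90 and 8.16 in mutants and 7.54, 7.48, 7.25 and 7.20 in wild-type mice. Every mutant lay above every wild-type mouse. The rise was 1.54-fold (log2 change 0.62, SE 0.12, adjusted p = 0.00939). Without mutant 191 and with sex in the fit, the log2 change was 0.39 and not called. It lay below those of Usp25, Usp13, Usp47, Usp20 and Usp22 in that fit. With values floored at 5 the call was lost (adjusted p = 0.0602). Its other probe set had a mean of 3.90, near background, and a log2 change of -0.06, and the call was lost on the mean of both (log2 change 0.28, adjusted p = 0.0814). The germ line genes Usp26 and Usp50 lay under 5 in all mice.

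**Figure D2:**
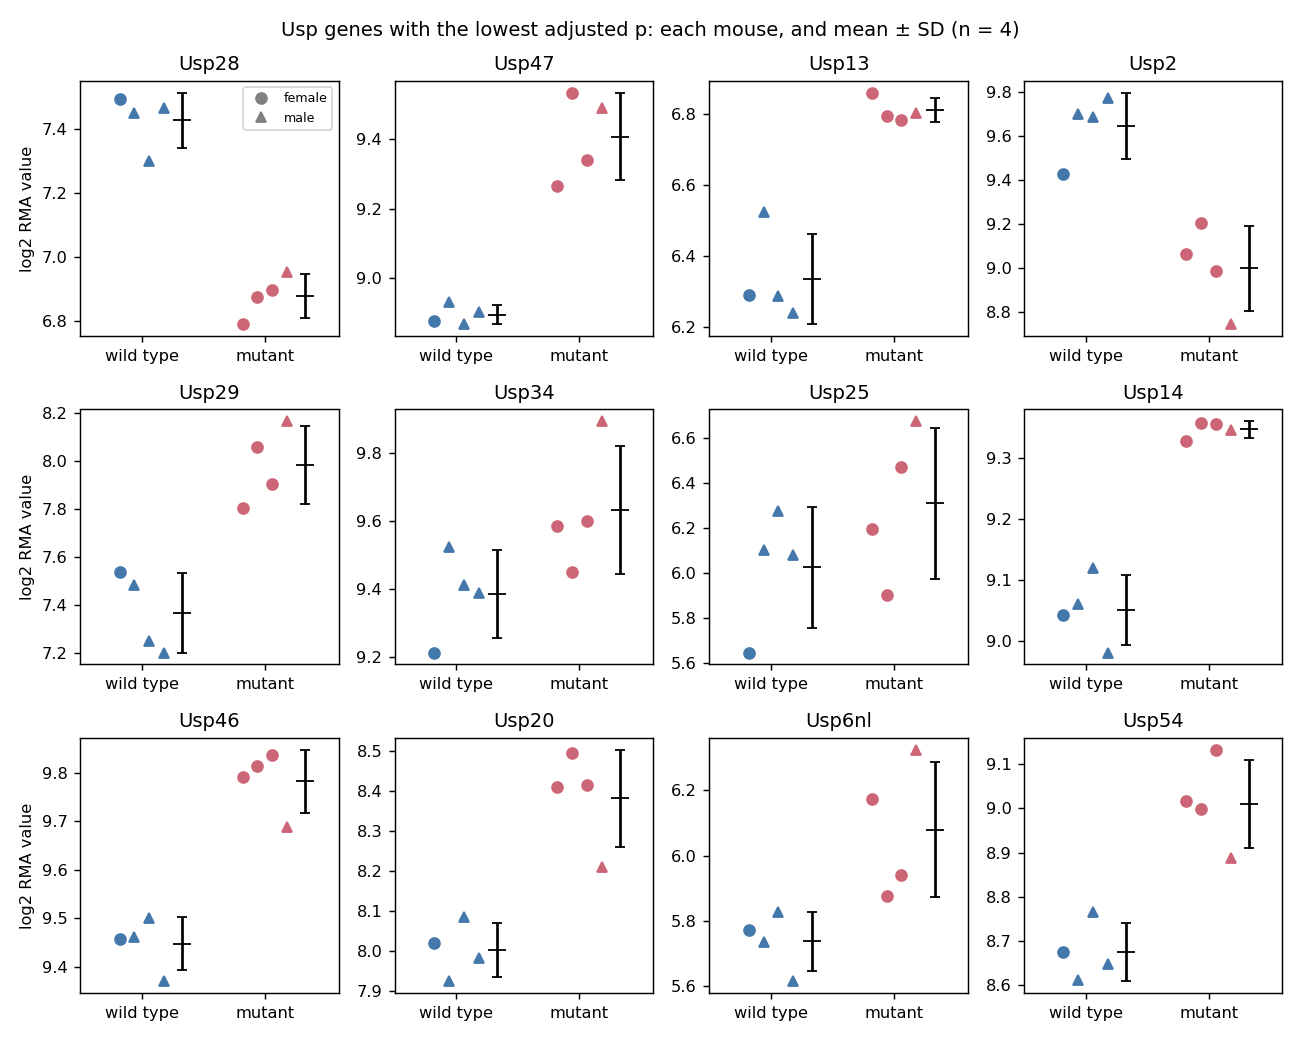
Log2 RMA values (vertical axes, a separate scale for each gene) of the 12 Usp genes with the lowest adjusted p in 4 wild-type and 4 CHL2 mutant mice, with circles for females, triangles for males and black bars for the mean ± SD. The groups overlap for Usp34 and Usp25 alone among the 12, where males lie above females on average.

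Members that act on histones included 0 calls among 9, with 3 at an unadjusted p under 0.05. Usp22, the deubiquitinase of the SAGA coactivator complex, had log2 values of 10.56, 10.61, 10.48 and 10.37 in mutants and of 10.16, 9.94, 10.24 and 10.28 in wild-type mice. The values did not overlap, and the log2 change of 0.31 (SE 0.11) had an adjusted p = 0.0915. It passed without the sex term (log2 change 0.35, adjusted p = 0.0243) and with a trended and robust prior (adjusted p = 0.0257). Of its SAGA partners, Sgf29 rose 1.45-fold (adjusted p = 0.00604) and Eny2 had a log2 change of 0.38 (adjusted p = 0.0513), while Atxn7 and Atxn7l3 lay at 0.11 and -0.12 and did not pass. Usp27x, Usp3, Usp16, Usp21, Usp36, Usp42 and Usp49 had log2 changes from -0.26 to 0.29, and Usp44 lay under 5 in all mice.

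Among the remaining roles 0 members passed. Usp18, which removes the interferon-induced protein ISG15, had all 8 values under 5, at 3.80 ± 0.19 (SD, n = 4) in wild-type and 4.10 ± 0.12 in mutant mice (log2 change 0.30, SE 0.12, adjusted p = 0.150). Usp30, on the outer mitochondrial membrane, had a log2 change of 0.09 (SE 0.12). The relatives Usp4, Usp11 and Usp15 and the splicing factor Usp39 lay between -0.14 and 0.13. Usp17la and Usp46os2 lay under 5 in all mice.

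Usp19, which is anchored in the endoplasmic reticulum and has been linked to polyglutamine proteins, had probe sets that disagreed. The brightest was lower in every mutant, at 8.14 ± 0.09 (SD, n = 4) against 8.43 ± 0.02 in wild-type mice. Its log2 change was -0.27 (SE 0.08, adjusted p = 0.0566 over genes and 0.101 among all probe sets). This probe set passed in the fit without sex, with a trended and robust prior and in several other alternatives. A second, at a mean of 7.83, was higher in mutants, with a log2 change of 0.41 (SE 0.08, adjusted p = 0.0136 among all probe sets). The remaining 2 lay at -0.21 and 0.00. Which transcripts of Usp19 these probe sets read was not analysed here.

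**Figure D3:**
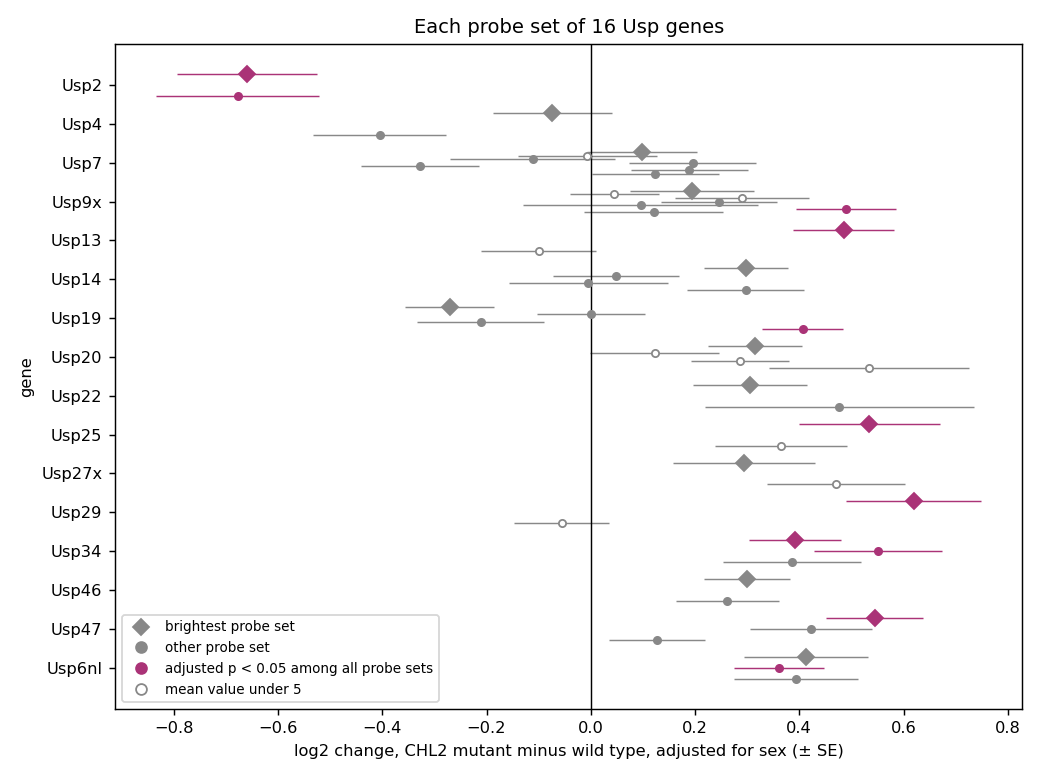
Log2 change (horizontal axis, sex-adjusted, bars are the SE) of every single-gene probe set of 16 Usp genes (vertical axis), with diamonds for the brightest probe set of a gene, open points for a mean under 5 and purple for an adjusted p under 0.05 among all probe sets. Both probe sets of Usp2 and all 3 of Usp34 and Usp6nl share their direction, while those of Usp19 and Usp7 lie on both sides of 0. The called genes Usp13, Usp14 and Usp29 each have 1 probe set on the other side of 0 from the brightest.

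Several called genes have a near relative that was not called, and 12 pairs of related genes were laid side by side within each mouse. The pairs were chosen after their values were seen, so the differences that follow describe the values already given. An exact test over all reassignments of mice to groups, adjusted over the 12 pairs, gave adjusted p values from 0.0686 to 0.543. No pair passed, and because of how the pairs were chosen the test is not used as support. The quantity is the log2 value of the first gene minus that of the second, and its shift is the mutant mean minus the wild-type mean.

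Usp25 minus Usp28, the widest shift, lay between -1.85 and -1.03 in wild-type and between -0.97 and -0.28 in mutant mice, a shift of 0.83, or 1.08 as the difference of their sex-adjusted log2 changes. Usp46 minus Usp12 lay between 1.16 and 1.55 in wild-type and between 1.66 and 1.88 in mutant mice, a shift of 0.43 (0.37 sex-adjusted). Usp54 minus Usp53 shifted by 0.43 (0.35 sex-adjusted), Usp13 minus Usp5 by 0.42 (0.43) and Usp47 minus Usp7 by 0.40 (0.45). With probe sets of a gene averaged, the shift of Usp13 minus Usp5 was 0.19. Several of the other 7 shifts moved by over 1.5 times with the term for sex: Usp20 minus Usp33 from 0.57 to 0.37, Usp11 minus Usp15 from 0.40 to 0.23, Usp15 minus Usp4 from -0.22 to -0.07, Usp22 minus Usp27x from 0.14 to 0.01 and Usp42 minus Usp36 from -0.12 to -0.01. Usp11 minus Usp4 went from 0.18 to 0.16 and Usp45 minus Usp16 from 0.25 to 0.35.

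**Figure D4:**
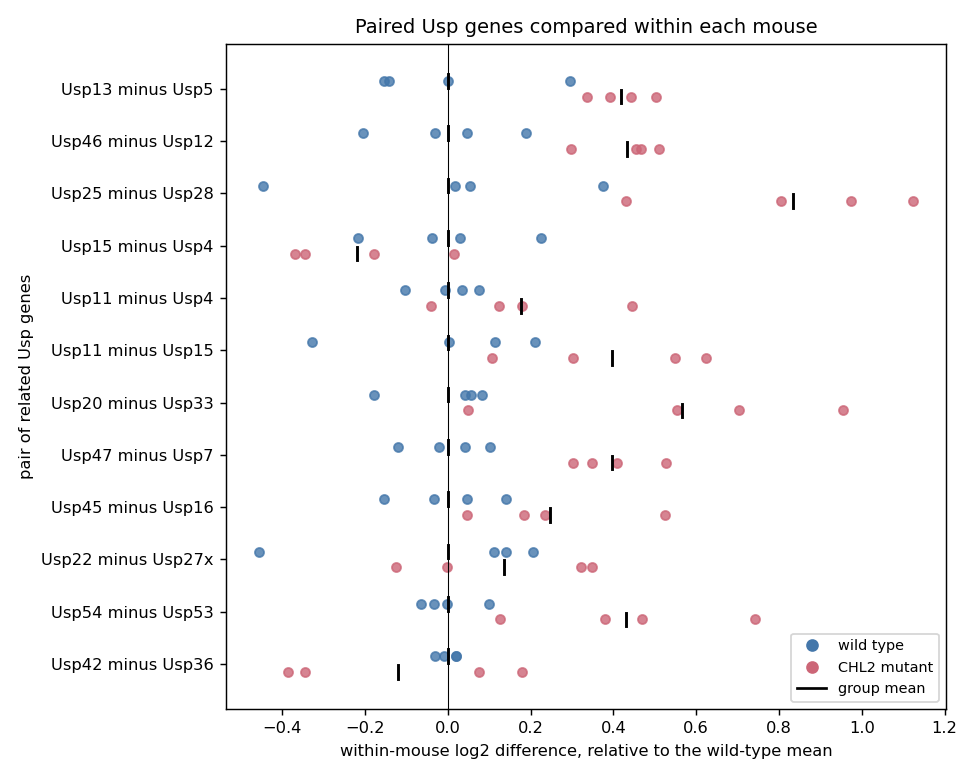
Within-mouse log2 difference of 12 pairs of related Usp genes (vertical axis), drawn relative to the wild-type mean of each pair (horizontal axis), with 1 point for each of the 8 mice and black bars for group means, without a term for sex. Mutant points lie to the right of all wild-type points for Usp13 minus Usp5, Usp46 minus Usp12, Usp25 minus Usp28, Usp47 minus Usp7 and Usp54 minus Usp53.

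Sex was compared in the same fit, because the groups differ in it and because Usp9x, Usp11, Usp26 and Usp27x lie on the X chromosome and Usp9y on the Y. Of the 51 members 0 differed between males and females in limma's test, where 0.0275% of all genes did, and 6 had an unadjusted p under 0.05. These 6 were Usp25, Usp9x, Usp15, Usp37, Usp45 and Usp34, each higher in males, by 0.29 to 0.50 on the log2 scale, with the lowest adjusted p = 0.304. The test of whether the genotype difference itself differed between the sexes called 0 members, where 0.0055% of genes were called, and 1 member had an unadjusted p under 0.05. With a trended and robust prior the count was also 0 for both tests. In that test 2 of the 4 combinations of sex and genotype held a single mouse.

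Other genes of the ubiquitin system were called at shares from 14.3% to 17.4%. The share was 12.4% of all genes and 18.4% of genes with all 8 values at or over 5. The mean deviation of a list's genes from their own means was fully apart between the groups for 3 of 4 lists. It ran from -0.06 to -0.03 in wild-type and from 0.03 to 0.06 in mutant mice for the partners of USP proteins, from -0.11 to -0.07 and from 0.07 to 0.12 for ubiquitin-like and E1 genes, and from -0.07 to -0.02 and from 0.03 to 0.07 for E2 enzymes, and overlapped for other deubiquitinases. These mean deviations carry no term for sex, and none was taken for all genes or for other genes of like signal. Of all genes with all 8 values at or over 5, 57.2% had a log2 change above 0. Of 33 other deubiquitinases measured, 3 rose and 2 fell (15.2%), with a median log2 change of 0.04. Otud7b, an OTU-family enzyme that restrains NF-kappaB signalling, rose 1.65-fold (adjusted p = 0.00279). Uchl1, an abundant neuronal ubiquitin hydrolase, rose 1.47-fold (adjusted p = 0.00419) from 10.54 ± 0.09 (SD, n = 4) to 11.11 ± 0.11. Mindy3 rose 1.23-fold, while Cyld, which cuts linear and Lys63-linked chains and sits at synapses, fell by 0.45 on the log2 scale (adjusted p = 0.00639), and Otub2 fell by 0.31. Atxn3, the polyglutamine protein of spinocerebellar ataxia, had a log2 change of 0.34 (SE 0.13, adjusted p = 0.113).

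Of 23 partners of USP proteins, 3 rose and 1 fell (17.4%), with a median log2 change of 0.07. Beside Sgf29, Stam2, a partner of Usp8 on endosomes, rose 1.34-fold (adjusted p = 0.0208) and Gmps, an activator of Usp7, rose 1.41-fold (adjusted p = 0.0234), while Fbxw7, the ligase subunit that Usp28 counteracts, fell by 0.42 on the log2 scale (adjusted p = 0.00797). Of 30 E2 enzymes, which pass ubiquitin to its targets, 4 rose (Ube2z, Ube2t, Ube2d2a and Ube2e1) and 1 fell (Ube2g2), or 16.7%, with a median of 0.11. Ube2t had all 8 values under 5 and overlapping groups. On the mean of probe sets 0 of these calls stood, a loss whose cause was not tested. Among 7 ubiquitin-like and E1 genes measured, Sumo3 rose 1.28-fold (adjusted p = 0.0226), and 6 of the 7 lay above 0. Without wild-type 161, with sex in the fit, the counts of these 4 lists were 2, 0, 0 and 0 in the order given, and without mutant 191 they were 0, 1, 0 and 1.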

How the data were processed

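Biotin-labelled RNA of 8 striata was read on Affymetrix whole-genome mouse arrays. The deposited values are log2 values per probe set, made by the authors with RMA and the affy package, per the submitters' processing notes (versions not given in the sources used here). This method forces arrays to 1 distribution and compresses changes of dim genes. Of 45101 probe sets, 64 controls were left out, and 34945 had 1 gene symbol in the platform annotation. The probe set with the highest mean represented each of 18193 genes.

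Differences, mutant minus wild type, came from lmFit and eBayes of limma 3.58.1 (R 4.3.3) with sex as a term, adjusted by Benjamini-Hochberg over all genes, with a threshold of 0.05. The script was tested on simulated data. Lists are described by counts and medians. The members, lists and tests were chosen with earlier results of these data known. Every member could be named. Called members are given per mouse, Usp5, Usp7, Usp9x, Usp12, Usp18 and Usp22 are described whatever their result, and of each other list up to 6 called genes with the lowest adjusted p are named. Usp19, Usp54 and the not-called genes of other lists were singled out after their values were seen. Related pairs were chosen after values were seen, so their permutation test, which no pair passed after adjustment, is not used as support. With 4 mice a group its p could not fall under 0.0286, so it is not used against a shift either. The separate mice were taken as replicates, and their number, 4 per group, limits the precision. Alternatives were a fit without sex, other priors, normalizations, probe set choices, floors, array weights and each mouse left out.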

Additional observations from a re-analysis of the deposited data

Results flagged for a closer look

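Of 102 groups of 4 values examined, that is 51 genes in both groups, 4 held a mouse set further apart from its group than Dixon's criterion allows, which chance gives in about 1 of 20 groups. Wild-type mouse 170 was the one set apart in 3 of them. Its log2 value was 7.30 for Usp16, where the rest of that group had 7.11 to 7.13, 7.27 for Usp27x, against 6.93 to 6.98, and 8.72 for Usp39, against 8.44 to 8.49. This mouse also had the largest 3' minus 5' differences of the control probe sets, and the part of RNA quality in these values was not tested. Mutant 153 had 10.18 for Usp7, against 9.92 to 9.96 in the other mutants.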

How the results depend on the processing

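Over the alternatives that kept all mice, 8 to 14 members were called, against 11 as reported, and with single mice left out 1 to 13, with 0 to 8 rises and 1 to 5 falls. The lowest counts were 1, 3 and 7, without mutant 191, wild-type 161 and wild-type 200. The share of all genes called was not determined for these alternatives. Without the sex term 13 members were called, 4 of them falls, and with 161 and 191 both left out and no sex term, added after seeing the data, 12 were called, again with 4 falls. The trended and robust prior gave 8 calls among other deubiquitinases, 3 among ubiquitin and E1 genes and 9 among E2 enzymes. The fit without sex gave 3 and 8 for the last pair of lists, and averaging probe sets gave 0 E2 calls. Leaving out mice, with or without the sex term, gave 0 to 6 calls among other deubiquitinases, 0 to 6 among partners, 0 to 3 among ubiquitin and E1 genes, with 2 and 3 without 191 and 161 and no sex term, and 0 to 6 among E2 enzymes. On averaged probe sets the pair shifts were 0.19 for Usp13 minus Usp5 and 0.29 for Usp47 minus Usp7.

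The log2 change of Usp9x ran from -0.17 to 0.39 over the fits that left out mice. It was -0.00098 without 191, and with no sex term -0.027 without 161, -0.12 without 191 and -0.17 without both. Single probe sets opposite to the brightest lay at -0.10 for Usp13, -0.0046 for Usp14, -0.056 for Usp29, -0.33, -0.11 and -0.0066 for Usp7 and 0.087 for Usp12. The causes were not tested. The refitted log2 changes of the other called members, Usp5, Usp18 and Usp22 kept their direction in every alternative run for them. With a floor of 5 on the log2 scale, Usp2, Usp25, Usp29 and Usp6nl lost their calls, Usp19 gained one, and Usp18 gave no value. No value used for Usp2, Usp25, Usp29, Usp6nl or Usp19 lay under 5. The floor changed values of other genes in that fit and left the log2 changes of these genes as they were. No paired analysis was possible because the mouse numbers are not shared between the groups. Signal near background limits 8 members, and 4 mice a group, of unequal sex, limit the rest.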

Other observations

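The neighbours of Usp29 in the imprinted Peg3 region were read after its rise was seen. Peg3, a zinc finger gene expressed from the paternal copy, had 11.08 in wild-type and 11.34 in mutant mice, values that did not overlap, with a log2 change of 0.20 (SE 0.08, adjusted p = 0.147 in limma's test). Zim1, Zim2 and Zim3 had all 8 values under 5 and log2 changes of 0.11, 0.06 and 0.07. Usp29 was thus the one gene of these 5 past the threshold, and the difference between it and Peg3 was not tested.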
